A study of Mus musculus with 14 samples.

Results

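The Hox gene clusters were described in whole mouse fetuses at gestational day 12.5 after injection of the zygote with a let-7f-5p mimic or with vehicle. Members were chosen by symbol, as every gene written Hox, a cluster letter from a to d and a paralogue number. The rule found 39 of the 18132 named genes, with 11 in the Hoxa cluster, 10 in Hoxb, 9 in Hoxc and 9 in Hoxd. All 39 had a mean value of at least 10 and entered the tests, which covered 17400 genes.

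Hox genes encode homeodomain transcription factors that give cells their position along the head-to-tail axis. They lie in 4 clusters, and the order of the genes in a cluster follows the order of their expression domains: low paralogue numbers act from the hindbrain back, high numbers in the lumbar and tail regions, the distal limbs and the genital tubercle. Members with the same number in different clusters are paralogues and often act redundantly. The clusters also hold genes for microRNAs, miR-10 and miR-196, which repress Hox transcripts. let-7 is a microRNA family that accumulates as cells differentiate, and the mimic supplies it to the zygote, days before the Hox genes switch on.

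All fetuses were wild type of the strain F1 C57BL/6Jx129S1/SvlmJ. Zygotes were assigned at random to a mimic of let-7f-5p with locked nucleic acid bases, at a dose labelled stress-relevant, or to nuclease-free water, and embryos were transferred to CD1 recipient dams. There were 3 let-7f females, 2 let-7f males, 5 vehicle females and 4 vehicle males, each a poly-A library of a whole fetus. No label names a litter or dam, so fetuses of a group may share one and p-values measure only the spread between these fetuses. In whole fetuses, fewer cells of a type and less RNA per cell cannot be told apart.

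The sequences of the injected microRNA and of those made from the clusters are shown because their seeds, bases 2 to 8 in capitals, are closely related. They are RefSeq mature sequences.
let-7f-5p: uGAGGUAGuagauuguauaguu
miR-196a-5p: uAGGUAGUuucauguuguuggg
miR-196b-5p: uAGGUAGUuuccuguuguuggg
miR-10a-5p: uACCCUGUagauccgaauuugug
miR-10b-5p: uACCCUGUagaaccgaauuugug
The let-7f seed and the miR-196 seed share 6 bases, shifted by 1 position. miR-196a is encoded at 2 places, between Hoxb13 and Hoxb9 at chr11:96265187-96265208 and between Hoxc10 and Hoxc9 at chr15:102973365-102973386, and miR-196b lies in Hoxa9 at chr6:52230129-52230150 (GRCm38). miR-10a lies between Hoxb5 and Hoxb4 at chr11:96317186-96317208, and miR-10b lies within the annotated span of Hoxd3 and Hoxd4 at chr2:74726074-74726096. The let-7f genes, Mirlet7f-1 on chromosome 13 and Mirlet7f-2 on chromosome X, are outside the clusters.

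Matches to the let-7 seed were sought on the transcript strand of annotated 3′ UTRs of GENCODE M21 (GRCm38). A match was the 8-base CTACCTCA, or 7 bases of it, CTACCTC or TACCTCA. Of the 39 members, 7 held a match (17.9%), against 16.9% of the 15480 tested genes with an annotated UTR. Matches of 6 of these members are shown, with the matched bases in capitals within windows of 25 bases, 5′ to 3′.
Hoxb1, 8-base: ctttgtatctgcaaCTACCTCAttg
Hoxa9: atattttgcaatagtTACCTCAagg
Hoxa11: gcctacctgggttttCTACCTCcca
Hoxb4: aaaccaggccccttcCTACCTCtgg
Hoxc11: tgcaaagtccaaatcCTACCTCcgt
Hoxd1: tttaaagtggcgctcCTACCTCttc
The Hoxb1 match is at chr11:96368220-96368227 and the Hoxb4 match at chr11:96321535-96321541, both on the plus strand.

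Matches to the miR-196 seed (the 8-base ACTACCTA, or ACTACCT or CTACCTA) were in 9 members (23.1%), against 11.8% of all such genes, and the 8-base form was in 5 members and in 1.36% of genes. Hoxa7, a central member, held 4 of the 8-base matches, and Hoxa5, Hoxb6, Hoxb7 and Hoxc8 held 1 each. Examples are shown beside matches to miR-10 (the 8-base ACAGGGTA, or ACAGGGT or CAGGGTA).
Hoxb7, miR-196: ctgtaaaaaaatatACTACCTAtgg
Hoxc8, miR-196: taaatctttaacatACTACCTAaag
Hoxa3, miR-10: ctctttgataagaaACAGGGTAtat
Hoxb3, miR-10: gacttaacgtgaaaACAGGGTAtat
miR-10 matches were in 6 members (15.4%), against 19.3% of genes. In Hoxb1 a let-7 match and a miR-196 match overlapped by 6 bases. A match is a description of the letters only, and the UTRs of Hox genes were of a median 966 bases, against 1174 over all genes.

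The Hoxa cluster spans chr6:52155590-52260880 on the minus strand, Hoxb chr11:96194316-96368256, Hoxc chr15:102921103-103036852 and Hoxd chr2:74668310-74765142, all 3 on the plus strand (GRCm38, GENCODE M21). Paralogue numbers fall along the direction of transcription in every cluster. On the same strand, Hoxd3 and Hoxd4 share 388 exon bases (9.26% of those of Hoxd3 and 13.2% of those of Hoxd4), and the gene model Gm28230 covers 53.1% of the exon bases of Hoxd3 and 39.1% of those of Hoxd4. Hoxc5 and Hoxc10 share 166 bases (5.37% and 8.70%). Values of these 4 genes are therefore uncertain, since reads in the shared bases could be split. Antisense genes overlap 5 Hoxa, 3 Hoxb and 2 Hoxd members, and the kit keeps strand, but the strand setting of the counting is not stated.

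Libraries that stood apart are described before the comparisons because they carry much of the variation in Hox values. Total reads ran between 27709934 and 42898166 per library, of which Hox genes held 13415 to 27880. Vehicle female 2 had the lowest value of all 14 libraries for 15 members, and 13 of these belong to paralogue groups 9 to 13, which hold 16 members. In those 16 genes its median value was 40.9% of the mean of the other 4 vehicle females, whereas in the 23 members of groups 1 to 8 it was 105%. Values here and below are the deposited normalized counts unless a scale is named.

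The members most depleted in vehicle female 2 were Hoxc10 to Hoxc13 and Hoxb13, which act at lumbar and tail levels. Hoxc10, which helps specify lumbar motor neurons, had 8.75 in vehicle female 2, against 497, 562, 553 and 577 in the other vehicle females, or 1.60% of their mean (95% exact Poisson interval 0.767 to 2.94, from 10 reads). Hoxc11 had 1.75, against 177, 170.3, 179.8 and 165, or 1.01% (0.123 to 3.65, from 2 reads). Hoxc12 had no read in vehicle female 2 and was at least 12.7-fold lower than the mean of 33.4 in the others, with a floor of 3 reads in that library. Hoxc13, a gene of hair and nail formation, was at 6.79% (2.731 to 13.996, from 7 reads). Hoxb13, a tail gene, was at 1.84% (0.0465 to 10.2, from 1 read). These intervals cover counting error only and treat the whole numbers given as counted reads.

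The drop in vehicle female 2 varied within clusters, with no order common to them. Hoxc9, which sets thoracic identity in the spinal cord, stood at 62.3% of the other vehicle females, against 1.60% for its neighbour Hoxc10. In the Hoxa cluster Hoxa9 stood at 53.3% and Hoxa10, Hoxa11 and Hoxa13 at 37.9%, 41.7% and 44.9%. In the Hoxd cluster, the digit genes Hoxd12 and Hoxd13 stood at 61.8% and 61.7% and Hoxd9 at 32.2%. Hoxb9 was the least affected of groups 9 to 13, at 91.8%. Among groups 1 to 8, only Hoxd1 (46.4%) and Hoxd8 were below every other library.

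Other markers moved in vehicle female 2 as well. Tbx4, a hindlimb gene, had 188 in vehicle female 2 against 324 to 610 in the other 13 libraries, and Pitx1, also a hindlimb gene, had its lowest value there (494). Tbx5, a forelimb and heart gene, had its highest there (1188, against 477 to 988), and Cdx2, an upstream regulator of Hox genes, was at 4 against 16 to 40. Tail bud and urogenital markers were not low there. The 6 tail bud markers summed to 755, against 438 to 719 elsewhere, with a score of 0.04, against -0.42 to 0.35. The score of the 7 urogenital markers was 0.25, against -0.54 to 0.24 elsewhere. The 9 liver markers summed to 1816 in vehicle female 2, against 42198 to 209618 in the other libraries, and albumin (Alb) was at 44, against 10269 to 61427. The score of 12 forebrain and midbrain markers, regions without Hox expression, was the highest of all in this library (0.39 on the log2 scale). Whether tissue was missing from this sample was not tested.

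Let-7f male 1 had the highest value of all libraries for 15 members and the lowest for 5, Hoxa6, Hoxa9, Hoxa13, Hoxb8 and Hoxc5. Ribosomal protein genes took 15.2% of its reads, the mitochondrial synthetase gene Lars2 took 2.21%, and 1 read was worth 1.76 units, against 0.794 to 1.07 in the others. Vehicle male 2 and vehicle female 1 followed with ribosomal protein shares of 9.30% and 6.86%, and the other 11 libraries had 3.89% to 5.94%. In the same 3 libraries Hoxa6, a thoracic member, was low, at 47.6 in let-7f male 1, 58.7 in vehicle male 2 and 68.8 in vehicle female 1, against 145 to 207 elsewhere. Hoxb3, a hindbrain and pharyngeal arch member, was low there too, at 904, 611 and 723, against 1004 to 1460.4. The part of ribosomal protein share or library quality in these values was not tested.

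**Figure D1:**
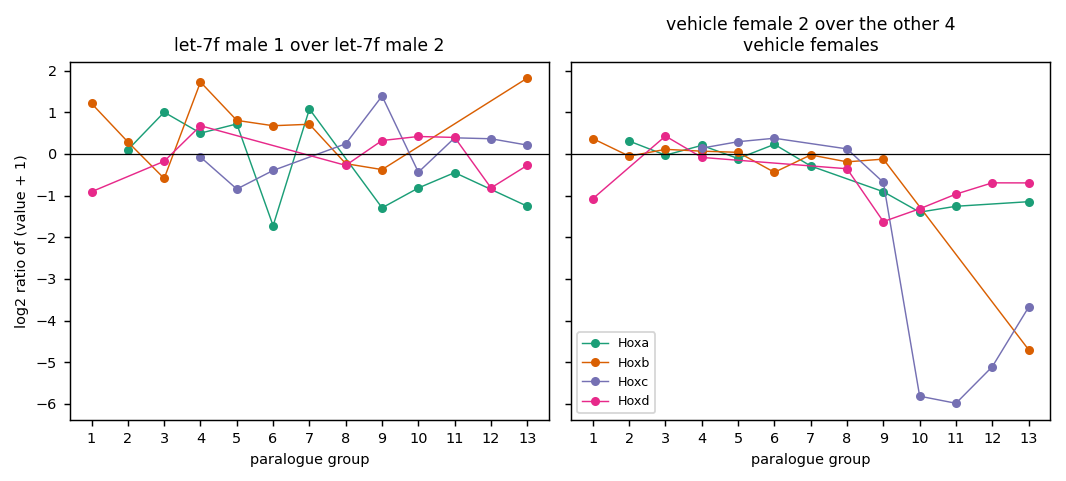
Log2 ratio of (normalized count + 1) by paralogue group (x axis), with 1 line per cluster over the members shown, for let-7f male 1 over let-7f male 2 (left) and vehicle female 2 over the mean of the other 4 vehicle females (right). The right panel stays near 0 for most of groups 1 to 8, except Hoxd1 (46.4%), and drops in groups 9 to 13, except Hoxb9 (91.8%), and most in Hoxc, where Hoxc10 was at 1.60%. The left panel shows gains and losses in every cluster, some in runs. Hoxa9 to Hoxa13 were all lower (40.8% to 73.3%) and Hoxb4 to Hoxb7 all higher (160% to 331%).

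Vehicle male 2 was the lowest of all libraries for 6 members. Its sum over Hoxc10 to Hoxc13 was 399.9, against 16.6 in vehicle female 2 and 690 to 905.5 in the other 12 libraries. Its groups 9 to 13 had a median of 72.7% of the other vehicle males and its groups 1 to 8 one of 88.9%. Vehicle male 1 held the trophoblast transcript Prl3b1 at 189, against 0 to 36 in the other libraries, and had the lowest value of all libraries for 2 Hox members.

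**Figure D2:**
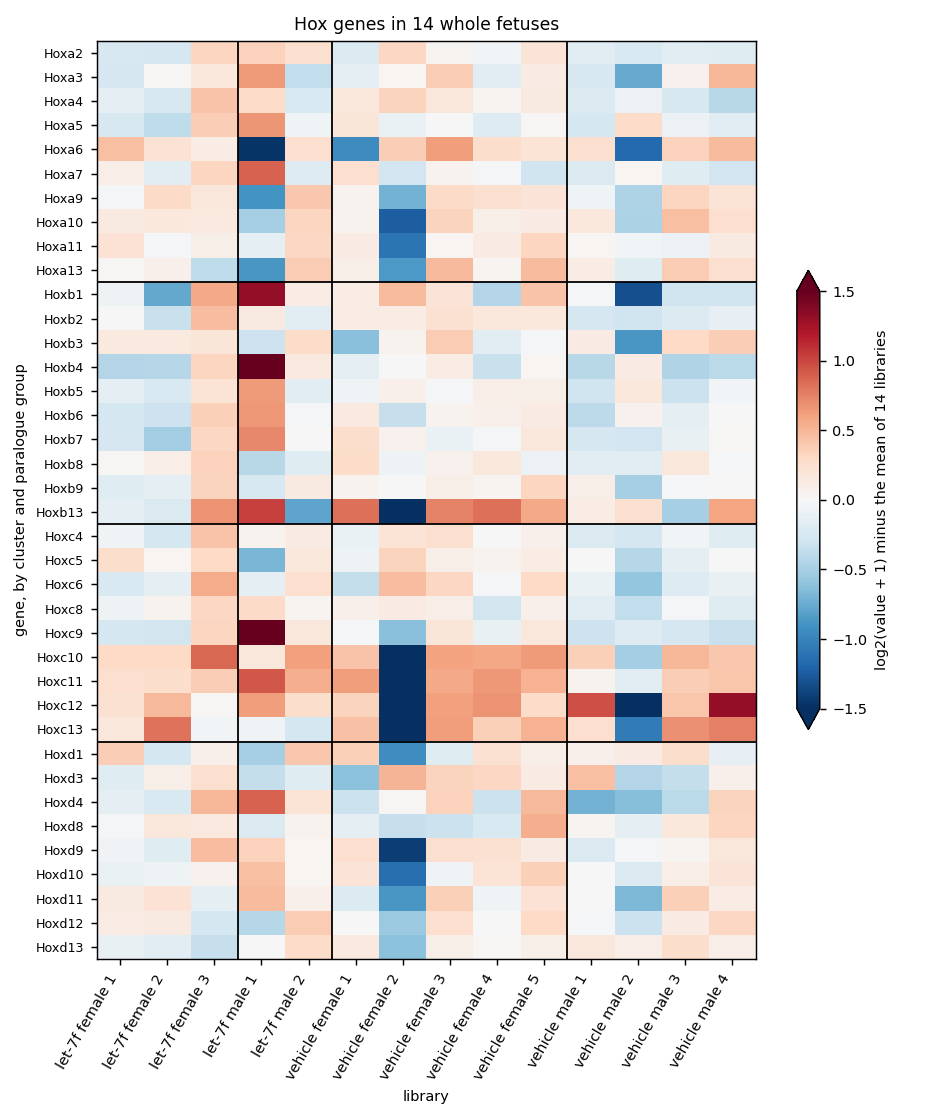
Log2 deviation of each member shown (rows, by cluster and paralogue) from its mean over 14 libraries (columns, by group), on a colour scale limited to -1.5 and 1.5. The low block in vehicle female 2 covers paralogue groups 9 to 13, with the least change in Hoxb9, and the mixed column is let-7f male 1.

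Levels of different genes were compared per kb of the longest annotated coding transcript. On that scale Hoxb9 was the most abundant member at 649 ± 94.8 normalized counts per kb (SD, n = 14), above Hoxc6 (455 ± 105), and the difference was larger than either SD. Hoxc6, Hoxc8 (438 ± 58.7), Hoxd11 (405 ± 94.1), Hoxa5 (404 ± 86.2), a gene of lung development, and Hoxc4 (401 ± 58.4) followed, and neighbours in this order differed by less than their SD. At the low end were Hoxb13 (15.7 ± 7.33), the hindbrain gene Hoxb1 (16.7 ± 7.98), Hoxd1 (23.6 ± 5.48), Hoxc12 (29.8 ± 14.4) and Hoxc13 (30.4 ± 12.4). These 5 genes lie at or next to the ends of Hoxb, Hoxc and Hoxd, in paralogue groups 1, 12 and 13. Other members at or next to an end were not among them, including Hoxa2, Hoxa11, Hoxa13, Hoxb2, Hoxc4, Hoxc5, Hoxd3, Hoxd12 and Hoxd13. Hoxb9, next to Hoxb13 at its end of the cluster, was the most abundant member on this scale.

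The median level per kb was 332 over the 11 members of groups 5 to 8 (118 to 455), 231 over the 12 of groups 1 to 4 (16.7 to 401) and 175 over the 16 of groups 9 to 13 (15.7 to 649). By cluster, medians were 259 in Hoxa, 308 in Hoxb, 243 in Hoxc and 187 in Hoxd, with wide overlap. The first place depends on the length used. With the median annotated length, Hoxa7 stood at 860 instead of 311 per kb and Hoxb8 at 766 instead of 332, both above Hoxb9 at 689.7. Between the 14 libraries, the coefficient of variation was 67.8% for Hoxb4 and 52.2% for Hoxc9, but 19.6% and 18.8% without let-7f male 1. It was 48.1% for Hoxc12, 47.7% for Hoxb1 and 46.6% for Hoxb13, and with a library left out it was at least 37.3%, 33.2% and 35.998%. The lowest were Hoxc8 (13.4%), Hoxb8 (14.01%), Hoxc4 (14.6%) and Hoxb9 (14.6%), and which member was lowest changed with the library left out.

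**Figure D3:**
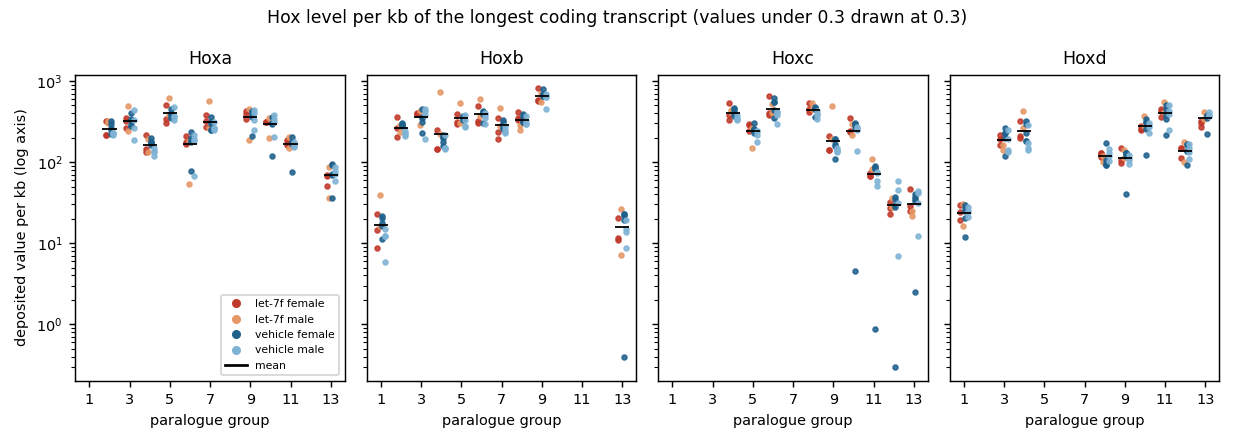
Normalized counts per kb of the longest coding transcript (log axis) for each member shown, ordered by cluster and paralogue number, with 1 point per library coloured by group. The lowest levels shown are Hoxb13 (15.7), Hoxb1 (16.7), Hoxd1 (23.6) and Hoxc12 (29.8), at or next to an end of their cluster. Other ends are high, Hoxc4 (401) and Hoxd13 (348). Hoxb9 (649) is the highest on this scale of the longest coding transcript, whereas Hoxa7 (860) and Hoxb8 (766) exceed it with the median length.

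The most abundant members per kb of the longest transcript were Hoxa5, Hoxb9, Hoxc6 and Hoxd11 in their clusters, and with the median length Hoxa7 and Hoxb8 take the place of Hoxa5 and Hoxb9. Hoxb9, which with its paralogues patterns the rib cage, averaged 1678 ± 354 in let-7f females (SD, n = 3) and 1609.8 ± 294 in let-7f males (n = 2), against 1783 ± 163 in vehicle females (n = 5) and 1553 ± 260.0 in vehicle males (n = 4). Hoxa5 had 631, 574 and 962 in let-7f females and 1174 and 712 in let-7f males, against 845, 692, 742, 650.3 and 752 in vehicle females and 621, 898, 699.8 and 668 in vehicle males. Its highest value was again in let-7f male 1.

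Hoxc6, which marks brachial spinal cord and thoracic tissue, had 598, 641 and 1031 in let-7f females and 635 and 835 in let-7f males, against 547, 966, 872, 694 and 862 in vehicle females and 654, 469, 611 and 651 in vehicle males. Hoxd11, a gene of the forearm and kidney, had 479.6, 507 and 399 in let-7f females and 606 and 460.4 in let-7f males, against 379, 239, 561, 419 and 508 in vehicle females and 440.3, 273, 563 and 472 in vehicle males. For both genes the let-7f and vehicle ranges overlapped in each sex, and their lowest vehicle value was in vehicle male 2 for Hoxc6 and in vehicle female 2 for Hoxd11. Hoxb13, the least abundant member per kb, had 25.4, 23.99 and 45.1 in let-7f females and 58.2 and 15.7 in let-7f males, against 50.5, 0.875, 47.6, 50.3 and 42.2 in vehicle females and 30.3, 33.4, 19.5 and 42.6 in vehicle males. The 2 let-7f males were at the extremes of the range left by the other libraries once vehicle female 2 is set aside.

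In females, let-7f and vehicle fetuses did not differ in any Hox gene beyond the threshold of the test. With limma and Benjamini-Hochberg adjustment over all genes, 0 of 39 members had an adjusted p under 0.05 (0.00575% of all genes did, a single gene) and 0 had an unadjusted p under 0.05 (0.81% of all genes). By edgeR (0% of all genes) and by DESeq2 (0.0115%), 0 members passed as well. Of the 39 members, 21 were higher in let-7f females and 18 lower (49.1% of all genes were higher), with a median log2 change of 0.01, and in no member were the groups apart without overlap (0.787% of genes higher and 0.707% lower).

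The members with the smallest p in females give the sizes. Hoxc10 had 454, 457 and 671 in let-7f females, against 497, 8.75, 562, 553 and 577 in vehicle females. The groups overlapped, and the log2 change of 1.09 (SE 1.07, limma adjusted p = 0.9998) became -0.08 without vehicle female 2. Hoxd8, a central member, had 303, 344 and 338 in let-7f females, against 277, 239.8, 244, 259.9 and 448 in vehicle females (log2 change 0.20, SE 0.199, limma adjusted p = 0.9998). Hoxb3 had 1243, 1238 and 1275 in let-7f females, against 723, 1159, 1460.4, 1004 and 1105 in vehicle females (0.24, SE 0.278, limma adjusted p = 0.9998). For both genes the let-7f values lay inside the vehicle range.

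On the lower side in females, Hoxb7 had 300.1, 249.5 and 446 in let-7f females, against 429.8, 374, 334, 351 and 404 in vehicle females (log2 change -0.23, SE 0.202). Hoxd13, which patterns the digits, had 793, 764 and 673 in let-7f females, against 947, 559, 908, 862 and 907 in vehicle females (-0.15, SE 0.164). Both had a limma adjusted p of 0.9998, and for Hoxd13 the let-7f females lay below 4 vehicle females and above vehicle female 2.

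The direction over paralogue groups in females turned with vehicle female 2. With it, 12 of the 16 members of groups 9 to 13 were higher in let-7f females (median log2 change 0.18). Without it, 0 of 16 were higher and all 16 were lower (median -0.14), with a total of 30 of 39 members lower (median -0.08) where 50.9% of all genes were lower. In all 16, vehicle female 2 stood below the mean of the other 4 vehicle females (at most 91.8%). Leaving it out therefore had to shift these changes downward, and the 16 members are not separate evidence. Groups 1 to 4 were lower in 9 of 12 members with the library (median -0.10) and in 10 of 12 without it (-0.07), and groups 5 to 8 higher in 6 of 11 (0.08) and 7 of 11 (0.05). Without vehicle female 2, Hoxd13 alone among the members had an unadjusted p under 0.05 (0.741% of all genes), and no member passed after adjustment. Without the 5 libraries that stood apart, 32 of 39 members were lower in let-7f females (53% of all genes).

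In males, Hox values were more often higher in let-7f fetuses, but none of the 39 passed adjustment by limma (0% of all genes did). An unadjusted p under 0.05 was reached by 6 members, all higher in let-7f males, against 10.8% of all genes in either direction and 5.37% higher. Of the 39, 27 were higher and 12 lower (49.9% of all genes were higher), with a median log2 change of 0.20 and an all-gene median of -0.00194. Without vehicle male 2, 23 were higher and 16 lower (8464 of 17400 genes were higher), with a median of 0.10. Values of the 2 let-7f males lay above all 4 vehicle males for 7 members, Hoxa2, Hoxb1, Hoxb4, Hoxc4, Hoxc8, Hoxc9 and Hoxc11 (4.14% of genes), and below them for Hoxb8 (5.9% of genes).

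Hoxb4, a hindbrain and cervical gene also known for expanding blood stem cells, had 1867 and 564 in let-7f males, against 382, 551, 372 and 383 in vehicle males. The groups did not overlap, but let-7f male 1 was far above every other library, and let-7f male 2 was just above vehicle male 2. Means were 1215 ± 922 (SD, n = 2) in the let-7f group and 422 ± 86.1 (SD, n = 4) in the vehicle group. The log2 change was 1.30 (SE 0.373, 95% interval 0.495 to 2.11, limma adjusted p = 0.447). It was 0.44 without let-7f male 1 and 2.16 without let-7f male 2.

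Hoxc9 had 1185 and 452 in let-7f males, against 323, 351, 338 and 318 in vehicle males. Both let-7f males were above the vehicle males, with let-7f male 1 the highest of all libraries. The log2 change was 1.14 (SE 0.327, 95% interval 0.430 to 1.84, limma adjusted p = 0.447), and 0.44 without let-7f male 1. Hoxd4, a hindbrain and neck gene, had 1088 and 679.8 in let-7f males, against 359, 378, 446 and 739 in vehicle males, so the groups overlapped, and exon bases shared with Hoxd3 and Gm28230 make its level uncertain. Its log2 change was 0.90 (SE 0.337, limma adjusted p = 0.447), and 0.56 without let-7f male 1.

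The choice of count model moved these calls. DESeq2 on the recovered reads called 2 members in males (0.333% of all genes), Hoxb4 (log2 change 1.54, DESeq2 adjusted p = 0.0304) and Hoxc9 (1.31, DESeq2 adjusted p = 0.0431), whereas edgeR called 0 (0% of all genes), with adjusted p = 0.344 for both. Over all alternatives the adjusted p ranged between 0.00148 and 0.9999 for Hoxb4, between 0.00294 and 0.9999 for Hoxc9 and between 0.0484 and 0.9999 for Hoxd4. Leaving out let-7f male 2 gave the lowest of these and called 7 members by limma (Hoxa7, Hoxb1, Hoxb4, Hoxb5, Hoxb7, Hoxc9 and Hoxd4) among 4390 genes (25.2%), with let-7f male 1 as the only let-7f male. The spread in that fit comes from the other groups alone, and the lone library is assumed to vary like them.

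Among anterior members in males, Hoxb1, which specifies the facial motor neurons, had 81.1 and 34.4 in let-7f males, against 31.3, 12.1, 25.7 and 25.7 in vehicle males (log2 change 1.20, SE 0.473, limma adjusted p = 0.447). Hoxa2, which patterns the hindbrain and the second pharyngeal arch, had 576 and 538 in let-7f males, against 409, 388, 407 and 400.4 in vehicle males (0.47, SE 0.186, limma adjusted p = 0.447). For Hoxa2 both let-7f males were alike and above all 4 vehicle males, and the change was 0.42 without let-7f male 1. The 4 members of paralogue group 4 were all higher in let-7f males, with a median of 0.58. Their changes without let-7f male 1 were 0.01 for Hoxa4, 0.44 for Hoxb4, 0.30 for Hoxc4 and 0.56 for Hoxd4.

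On the lower side in males, Hoxb8, a member expressed in the spinal cord and in a lineage of microglia, had 649 and 762 in let-7f males, against 771, 770.4, 978 and 850.4 in vehicle males (log2 change -0.25, SE 0.158, limma adjusted p = 0.472). Hoxa6 had 47.6 and 159 in let-7f males, against 158, 58.7, 170.1 and 186 in vehicle males (-0.58, SE 0.545, limma adjusted p = 0.607). Hoxa13, which acts in the digits and the genital tubercle, had 86.4 and 208 in let-7f males, against 172, 141, 208 and 188 in vehicle males (-0.39, SE 0.387, limma adjusted p = 0.629). For Hoxa6 both let-7f male 1 and vehicle male 2 were low, and for Hoxa13 let-7f male 1 was the lowest. Without let-7f male 1 the changes were 0.28 and 0.24.

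By cluster in males, 9 of 10 Hoxb members were higher, 7 of 11 in Hoxa, 7 of 9 in Hoxc and 4 of 9 in Hoxd. By region, 10 of 12 members of groups 1 to 4 (median 0.25), 7 of 11 of groups 5 to 8 (0.35) and 10 of 16 of groups 9 to 13 (0.07) were higher. Without let-7f male 1, 29 of 39 were higher (median 0.22, 53.2% of all genes), and in Hoxb 7 of 10 were. Without 5 libraries that stood apart (let-7f male 1, vehicle females 1 and 2 and vehicle males 1 and 2), 26 were higher with a median of 0.07 (51.1% of all genes). In both fits let-7f male 2 was the only let-7f male, so these counts describe 1 fetus against the vehicle males.

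**Figure D4:**
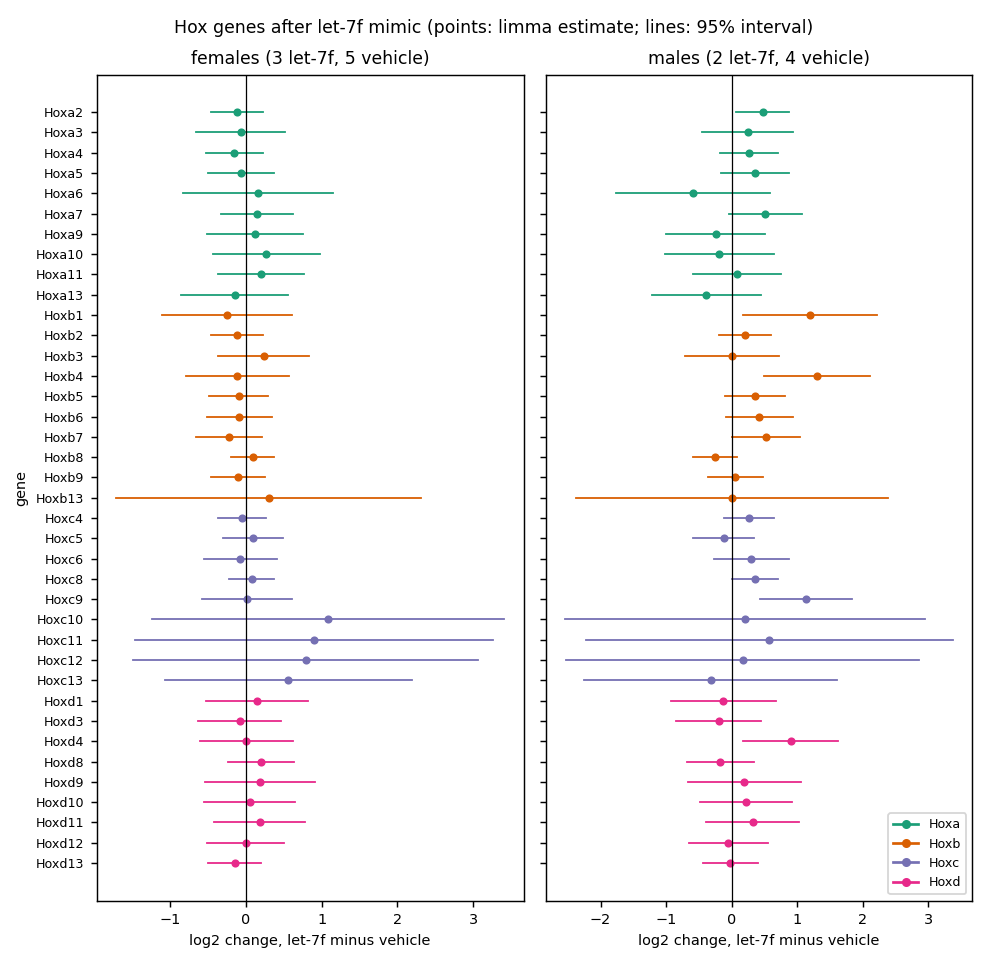
Log2 change of let-7f over vehicle with its 95% interval from limma for each member shown, coloured by cluster, in females (3 let-7f, 5 vehicle) and in males (2 let-7f, 4 vehicle). In females the intervals are widest for Hoxc10, Hoxc11, Hoxc12 and Hoxb13 and cover 0 for all members shown. In males Hoxb4 (1.30) and Hoxc9 (1.14) are among those whose interval lies above 0.

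The mean of the changes in females and males gave 0 members past the threshold by limma (0% of all genes) and 2 with an unadjusted p under 0.05, both higher (2.78% of all genes in either direction). By DESeq2 (0.046% of all genes) and by edgeR (0%), 0 members passed. Higher members numbered 29 and lower ones 10 (51.3% of all genes were higher, median 0.12). Hoxc9 (log2 change 0.57, SE 0.214), Hoxb4 (0.59, SE 0.244) and Hoxd4 (0.45, SE 0.220) led the higher side, and Hoxa13 (-0.27, SE 0.253), Hoxb8 (-0.08, SE 0.104) and Hoxd3 (-0.14, SE 0.198) the lower, all with limma adjusted p = 0.947. Without the 5 libraries apart, 17 were higher and 22 lower (median -0.01, 48.8% of all genes higher). That fit held a single let-7f male.

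Hoxd3, a gene of the upper neck vertebrae, had 477, 575 and 639 in let-7f females and 423 and 478 in let-7f males, against 352, 772, 680.3, 671 and 588 in vehicle females and 743, 399, 422 and 569.9 in vehicle males. The let-7f values lay within the vehicle range in both sexes. In both sexes 13 members were higher in let-7f fetuses (16.3% of all genes) and 4 lower, Hoxa13, Hoxd3, Hoxd12 and Hoxd13 (17.3% of all genes). Of the 13, 9 belong to groups 9 to 13, and all 9 were lower in let-7f females once vehicle female 2 was left out. Without that library 4 members were higher in both sexes. The lower side changed too: Hoxa9, Hoxa10, Hoxc13 and Hoxd1, lower in males, were then also lower in females. Hoxd3 was then no longer lower in females.

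**Figure D5:**
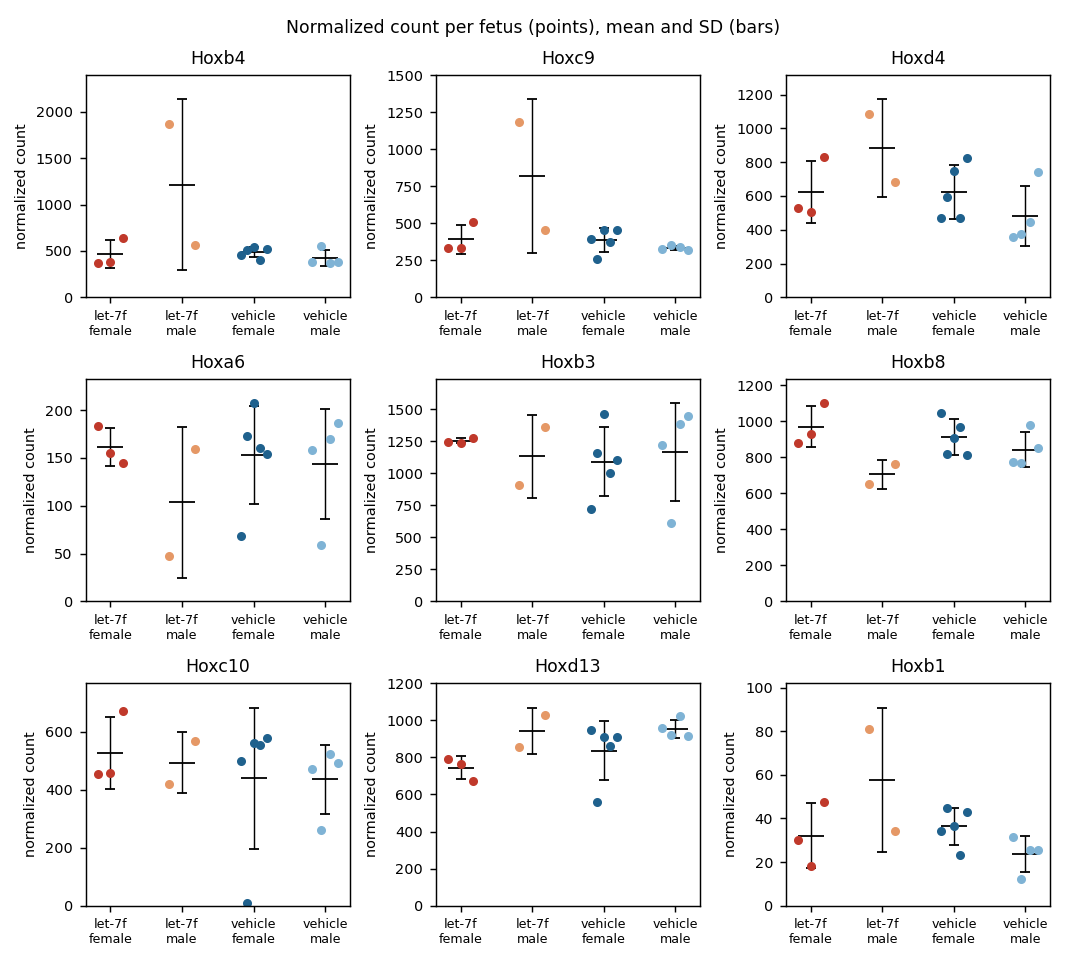
Normalized counts per library (y axis from 0) for 9 members, with groups from left to right let-7f female (n = 3), let-7f male (n = 2), vehicle female (n = 5) and vehicle male (n = 4) and bars for mean and SD. Let-7f male 1 stands above the rest in Hoxb4 (1867), Hoxc9 (1185) and Hoxd4 (1088), and vehicle female 2 is near 0 in Hoxc10 (8.75).

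Whether let-7f changes were alike in males and in females was tested by the difference itself, males minus females. It passed for 0 members by limma and by edgeR (0% of all genes each) and by DESeq2 (0.138% of all genes), and 5 had an unadjusted p under 0.05, all with a larger change in males (8.53% of all genes in either direction, 4.12% with a larger change in males). Hoxb4 differed by 1.41 (SE 0.488), Hoxc9 by 1.12 (SE 0.428) and Hoxa2 by 0.59 (SE 0.243), with limma adjusted p = 0.522 for all 3. On the other side were Hoxb8 (-0.34, SE 0.207, limma adjusted p = 0.524), Hoxd8 (-0.37, SE 0.309, limma adjusted p = 0.594) and Hoxa6 (-0.74, SE 0.712, limma adjusted p = 0.644).

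Hoxb4 illustrates that difference, at 374, 377 and 637 in let-7f females against 459, 505, 548, 403 and 518 in vehicle females. Its log2 change was -0.11 in females and 1.30 in males. Over all members the difference was above 0 for 22 and below for 17 (49.5% of all genes above, median 0.14). It was above 0 for 28 without vehicle female 2 (median 0.30, 49.5% of all genes) and for 25 without let-7f male 1 (54.1% of all genes). The fit without let-7f male 1 held a single let-7f male.

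Among vehicle fetuses, males and females were compared as a background for the sex split. No member passed by limma (0.0402% of all genes did), edgeR (0.0287%) or DESeq2 (0.069%), and 2 had an unadjusted p under 0.05 (2.63% of all genes in either direction, 1.24% lower), Hoxa4 and Hoxb2, both lower in males. Hoxb2, a hindbrain gene, had 358, 345, 369 and 391 in vehicle males, against 461, 460.4, 499.9, 476 and 473 in vehicle females (log2 difference -0.37, SE 0.144, limma adjusted p = 0.9998). Hoxa4 had 217, 238, 213 and 188 in vehicle males, against 283, 319, 285, 259 and 278 in vehicle females (-0.41, SE 0.160, limma adjusted p = 0.9998). Both genes had no overlap between the sexes, as did 0.759% of all genes on the lower side.

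Hoxc4, a neck-level member, had 731, 704, 817 and 741 in vehicle males, against 788, 969, 994, 844 and 891 in vehicle females (-0.26, SE 0.136, limma adjusted p = 0.9998), with an overlap of a single pair of fetuses. On the other side Hoxd13 (0.21, SE 0.151), Hoxd8 (0.19, SE 0.183) and Hoxc12 (0.82, SE 0.967) led, each with limma adjusted p = 0.9998. Hoxc12 had 47.0, 7.09, 31.9 and 60.4 in vehicle males, against 30.1, 0, 36.6, 38.2 and 28.7 in vehicle females, so its difference rested on vehicle female 2 and was -0.20 without it. Of the 39, 16 were higher and 23 lower in vehicle males (46.8% of all genes were higher), with 10 of 12 lower in groups 1 to 4 (median -0.23), 10 of 11 in groups 5 to 8 (-0.13) and 3 of 16 in groups 9 to 13 (0.11). Without vehicle female 2, 15 of those 16 were lower in vehicle males and 36 of 39 overall (median -0.18, 53.1% of all genes lower). That library was low in groups 9 to 13, so leaving it out raised the female means there. Without vehicle male 2, 19 members were higher and 20 lower (median -0.07, 8602 of 17400 genes lower). Without the 5 libraries apart, 13 were higher and 26 lower (median -0.14, 8900 of 17400 genes lower).

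The 6 members whose let-7 seed matches are printed above did not move together. In females their log2 changes were -0.25 for Hoxb1, 0.12 for Hoxa9, 0.19 for Hoxa11, -0.11 for Hoxb4, 0.90 for Hoxc11 and 0.15 for Hoxd1. In males they were 1.20 for Hoxb1, -0.24 for Hoxa9, 0.08 for Hoxa11, 1.30 for Hoxb4, 0.58 for Hoxc11 and -0.13 for Hoxd1. Hoxc11 had 137, 137 and 148 in let-7f females, against 177, 1.75, 170.3, 179.8 and 165 in vehicle females. It was lower in let-7f females than in each vehicle female except vehicle female 2.

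Without vehicle female 2, all 7 members with a match were lower in let-7f females (median -0.10), as were 23 of the 32 members without a match (median -0.08) and 50.9% of all genes. Hoxd1, which acts in pain-sensing neurons among other sites, had 55.6, 35.5 and 45.1 in let-7f females and 30.0 and 57.1 in let-7f males, against 54.8, 21.9, 37.5, 50.3 and 46.0 in vehicle females and 45.0, 46.6, 51.4 and 39.1 in vehicle males. Hoxa9 had 1093, 1362 and 1256 in let-7f females and 603 and 1479 in let-7f males, against 1160.4, 685, 1368, 1322 and 1283 in vehicle females and 1071, 811, 1399.7 and 1289.8 in vehicle males. Hoxa11, a gene of the forearm and uterus, had 434, 368 and 396 in let-7f females and 340.3 and 464 in let-7f males, against 406, 173, 382, 407 and 466 in vehicle females and 382, 361, 349.9 and 409 in vehicle males. The let-7f values of all 3 genes spread across those of the vehicle fetuses.

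Partners and regulators of Hox genes were read from lists, each with its count in the mean over both sexes, and no gene of any list passed the limma test in that or in the other comparisons. In that mean, 0 of them had an unadjusted p under 0.05 either. Of the 9 PBX, MEIS and PKNOX cofactors, which bind DNA with Hox proteins, 4 were higher and 5 lower (median -0.01), with Meis3 at 0.32 (SE 0.160) and Pbx3 at -0.23 (SE 0.163). Meis3 had 3616 and 1703 in let-7f males, against 1281, 1913, 1448 and 1457 in vehicle males, so that its highest library was let-7f male 1, as for Hoxb4. Of 15 upstream signals, retinoic acid and CDX genes among them, 6 were higher and 9 lower (-0.02). The retinoic acid degrading enzyme gene Cyp26a1 was at -0.18 (SE 0.192) and Lin28b, whose protein blocks let-7 maturation, at 0.12 (SE 0.154). Cdx1 and Cdx4 were not analysed here.

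Chromatin regulators did not pass either. Of 20 Polycomb genes, whose products keep silent Hox genes silent, 8 were higher and 12 lower (-0.03), with Phf19 at 0.27 (SE 0.229) and Bmi1 at -0.18 (SE 0.181). Of 11 trithorax and boundary genes 7 were higher and 4 lower (0.01), with Ash2l at 0.11 (SE 0.0786) and Rbbp5 at -0.20 (SE 0.164). Among 12 genes flanking the clusters 7 were higher and 5 lower (0.02), with Tax1bp1 at -0.10 (SE 0.0799) and Calcoco1 at -0.15 (SE 0.135). Noncoding genes of the clusters, 16 listed, were not analysed here. For every gene named in these lists the limma adjusted p was 0.947.

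Markers of body parts were read the same way. Of 12 forebrain and midbrain markers 3 were higher and 9 lower in the mean over both sexes (median -0.11; Tbr1 at -0.52, SE 0.301, and Emx1 at -0.32, SE 0.234). Of 5 hindbrain markers 2 were higher (-0.02; Gbx2 at -0.14, SE 0.105), of 8 spinal motor markers 5 (0.04; Lhx3 at 0.45, SE 0.261, and Lhx4 at 0.28, SE 0.291) and of 11 limb markers 6 (0.02; Msx1 at 0.21, SE 0.148, and Pitx1 at 0.32, SE 0.259). Of 6 tail bud markers 4 were higher (0.11; Hes7 at 0.47, SE 0.312, and Nkx1-2 at 0.27, SE 0.241), with 5 of 6 higher in males (0.46). The 7 urogenital markers had 4 higher (0.01; Wt1 at 0.09, SE 0.115, and Six2 at 0.08, SE 0.133). By library, the forebrain and midbrain score was highest in vehicle female 2 (0.39) and lowest in let-7f male 1 (-0.39). It was 0.05, 0.05 and -0.25 in let-7f females 1, 2 and 3 and 0.15 in let-7f male 2. The other vehicle libraries had -0.14 to 0.20.

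Liver markers were higher for 8 of 9 in the mean over both sexes (0.77; Ahsg at 0.95, SE 1.10, and Fgb at 0.77, SE 0.999), and for 8 of 9 in females, where the median was 1.47 and vehicle female 2 had nearly none. Prl3b1, the trophoblast marker that could be tested, was at -0.88 (SE 0.831). All markers had a limma adjusted p of 0.947 where named, and their part in the Hox values was not tested. The fetus label was met by markers of other body parts in every library, with summed values of at least 4954 for forebrain and midbrain, 1441 for spinal motor neurons, 11598 for limbs and 4110.0 for urogenital tissue, and liver markers were near absent in vehicle female 2.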

How the data were processed

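RNA of 14 whole fetuses was sequenced as poly-A libraries (TruSeq Stranded mRNA, per the labels' protocols). The values are a normalized signal for each gene, deposited by the authors as normalized counts per the labels. The strand setting of the counting is not stated. Named in the submitters' processing notes, without role or order, are DESeq2 1.48.2, kallisto 0.50.1, Trimmomatic 0.39, MultiQC 1.28, FastQC 0.12.1 and the build GRCm39. In every library 100% of values were whole multiples (within 1e-06) of a smallest unit, the value of 1 read. Whole counts, called reads here, were recovered from it, 27709934 to 42898166 per library. Whether they are counted reads or rounded estimates is not stated. A row without a gene name held 0.0180% to 0.0334% of reads and was left out. Library pairs within groups differed beyond sampling noise (20 pairs, chi-square per degree of freedom at least 18.2).

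A mean value of 10 or more was required, which kept 17400 genes for testing and dropped 732. The scale was log2(value + 1), which understates changes of low genes, and 4 group means were fitted with limma 3.58.1 in R 4.3.3 (intensity trend, 10 residual degrees of freedom, Benjamini-Hochberg adjustment over all genes, threshold 0.05). The procedure was tested on simulated data. Alternatives were pseudocounts of 0.5 and 5, no filter, a minimum mean of 50, a 75th percentile scaling, edgeR 4.0.16 and DESeq2 1.42.0 on recovered reads, a replicate block, only the groups compared, each library left out, and 5 libraries left out together. Those 5 had been singled out in an earlier analysis by ribosomal protein, liver or trophoblast marker levels.

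The members and lists were chosen with earlier results of these data known. Members given in full were the 3 with the smallest p in each direction of each comparison, the highest and lowest per kb in each cluster, and those with a let-7 match; of other lists, the 2 with the smallest p in the mean of the sexes. A member and a marker that met these rules are counted but not reported here by name, nor drawn in the figures. Levels per kb used the length of the longest annotated coding transcript. Positions and UTRs came from GENCODE M21 (GRCm38) and mature microRNAs from RefSeq (GRCm38.p6), both older than GRCm39. Ribosomal protein genes were 161 genes by symbol, some pseudogenes and kinases included. A list score averages, over its genes, the log2 distance of a library from the gene's overall mean. Intervals and floors cover counting error only.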

Additional observations from a re-analysis of the deposited data

Results flagged for a closer look

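In 78 gene and group pairs of 4 or 5 vehicle libraries, 14 values lay far from the rest of their group by Dixon's ratio of gap to range. The cutoff sets about 1 in 20 apart where values are independent and normally spread. The pairs share the same 9 libraries, so that rate is no yardstick for the count of 14. Vehicle female 2 supplied 10 of the 14 values, all low against the other vehicle females. These were Hoxa10 (306.4), Hoxa11 (173.3), Hoxb6 (593.5), Hoxb13 (0.8753), Hoxc10 (8.753), Hoxc11 (1.751), Hoxc12 (0), Hoxc13 (6.127), Hoxd9 (87.53) and Hoxd13 (559.3). Of these, 9 are in paralogue groups 9 to 13, and Hoxb6 is the exception.

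The others were single values. Hoxb9 was high in vehicle female 5 (2069), Hoxd8 was high in the same library (447.5), Hoxc8 was low in vehicle female 4 (671.7), and Hoxb4 was high in vehicle male 2 (550.7). For Hoxd8 the let-7f change differed by -0.3743 on the log2 scale, males minus females, since both let-7f males lay below the vehicle male mean and all 3 let-7f females above the vehicle female mean. The limma test of that difference did not pass (adjusted p = 0.594).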

How the results depend on the processing

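Genes called over the whole table depended on the setting. For let-7f females, limma called 1 gene, against 0 with a pseudocount of 5, edgeR, the replicate block, only the groups compared or without the 5 libraries apart, 2 with no filter and with DESeq2, and 0 to 1 with a library left out. For males the count was 0, against 1 with a pseudocount of 0.5, 58 with DESeq2 and 0 to 4390 with a library left out. For the mean of the sexes it was 0, against 8 with DESeq2 and 0 to 874 with a library left out, and for the difference 0, against 24 and 0 to 3206. For sex among vehicle fetuses it was 7, against 12 with DESeq2 and 5 to 7. Changes that reversed sign, with their range over left-out libraries, were Hoxc10 in females (-0.0764 to 1.40, lowest without vehicle female 2), Hoxa6 in males (-1.44 to 0.28) and in the difference (-1.60 to 0.12), Hoxa13 in males (-1.01 to 0.24) and in the mean (-0.580 to 0.0477), each of these highest without let-7f male 1, and Hoxc12 by sex (-0.20 to 1.45, lowest without vehicle female 2). Without the 5 libraries, Hoxc10 in females (-0.12) and Hoxa13 in males (0.0682) reversed too. The cause was not tested. The median Hox change ranged over left-out libraries between -0.08 and 0.10 in females, 0.10 and 0.35 in males, 0.04 and 0.18 in the mean, 0.03 and 0.30 in the difference and -0.18 and -0.03 by sex, against an SD of the Hox score within groups of 0.246. With the replicate block the medians were 0.06, 0.37, 0.21, 0.15 and -0.10, with 0 Hox genes called. The 16 same-numbered pairs of libraries deviated from their group means with r between -0.576 and 0.346, 5 over 0.1. In groups this small the r values are partly fixed in advance, so they cannot tell whether equal numbers mark a shared litter or dam. Low counts limit the precision of Hoxc11, Hoxc12 and Hoxb13 in vehicle female 2, which rest on 2, 0 and 1 of its 39561496 reads.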
